A study of Arabidopsis thaliana with 6 samples.

Results

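The photoreceptors PHYA, PHYB, CRY1 and CRY2, the phytochrome-interacting factors PIF1, PIF3, PIF4 and PIF5, and the ubiquitin ligase proteins COP1 and SPA1 were followed at the transcript level in *flu* seedlings of *Arabidopsis thaliana*. These 10 genes were chosen by name, for their known place at the head of light signalling. The choice was made with earlier results of these data known. The table of 11167 genes held 8 of them, and all 8 passed the filter on low counts that left 10622 genes for the test. COP1 and SPA1 were not analysed here.

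Both groups were the *flu* 1-1 mutant in the Col-0 background, 2 weeks old, sampled as whole seedlings, with 3 libraries each. Seedlings of the 4 h group were kept in darkness for 4 h, those of the 0 h group for 0 h, and both were then given 30 min of light at 30 µE, as the treatment protocol states. The treatment label of each sample words the same hours as exposure to light, and the protocol was followed here. The labels give continuous light for growth, but the study's methods describe a cycle of day and night, so the light the seedlings grew in is not certain. FLU restrains chlorophyll precursor synthesis, and in *flu* that feedback is defective, so protochlorophyllide builds up in darkness and produces singlet oxygen in the light that follows. No wild type and no mutant kept for the same time in light entered the comparison, so 4 h of darkness, the hours that passed and the precursor that accumulated cannot be told apart. Seedlings were pooled within each library, and the labels do not say whether the 3 libraries of a group came from separate sowings, so p-values cover the spread among these libraries only.

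Phytochromes absorb red and far-red light and cryptochromes absorb blue light. Activated phytochrome enters the nucleus and binds the PIF proteins, basic helix-loop-helix transcription factors that promote growth in darkness, and marks them for degradation. COP1 and SPA1 form a ligase that removes light-promoting factors such as HY5 in darkness, and light-activated photoreceptors hold that ligase in check. Most of this control acts on proteins, whereas the values below are transcript levels.

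The 6 libraries held between 1012425 and 2185464 reads in the 4 h group and between 1487666 and 1924910 reads in the 0 h group, counted at transcript 3′ ends without correction for amplification copies. Levels are given as CPM, reads scaled to a common library size with TMM factors, and are compared within a gene only. A count of 3 reads corresponded to between 1.37 and 2.97 CPM, and covers counting error only. On the second principal component replicate 3 of the 4 h group lay at -40.1, against 15.0 and 28.8 for replicates 1 and 2, so calls below are also given without that library. FLU transcript lay between 154 and 215 CPM in the 4 h libraries and between 110 and 172 CPM in the 0 h libraries, which does not check the mutation, since reads of transcript ends do not show whether FLU works. Summed CPM over 5 shoot markers ranged between 33889 and 44721 in the 4 h libraries and between 39697 and 47667 in the 0 h libraries. All 5 had negative log2 fold changes, and 3 of them, RCA, CAB3 and CA1, were called lower, against 8.18% of all genes. RBCS1A made up most of the sums, with means of 26930 CPM in the 4 h group and 27056 CPM in the 0 h group. Summed CPM over 5 root markers ranged between 117 and 189 in the 4 h libraries and between 121 and 170.3 in the 0 h libraries, with 1 higher and 1 lower. The phloem marker SUC2 was lower, with 138, 138 and 124 CPM in the 4 h libraries against 188, 245 and 186 CPM in the 0 h libraries. The part of these markers in the results below was not tested. In whole seedlings, fewer cells of a type and less RNA per cell cannot be told apart.

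PIF3 and PIF5 transcripts were higher after 4 h of darkness and PIF4 transcript was lower, whereas PIF1 and the 4 photoreceptor transcripts did not pass the test. Of the 8 members measured, 2 were therefore called higher, against 8.37% of all genes, and 1 was called lower, against 8.18% of all genes. The call was an adjusted p under 0.05 by edgeR's quasi-likelihood test over all 10622 genes, and 16.6% of all genes were called in either direction. The 3 members called were 37.5% of the 8. The same 3 were the members whose groups did not overlap, again 37.5%, against 32.3% of all genes. The median log2 fold change of the 8 members was 0.10, against -0.06 over all genes tested. Only the PIF3 call held under all 16 alternative settings. The PIF5 call was lost in 5 of them and the PIF4 call in 6, among them DESeq2.

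**Figure D1:**
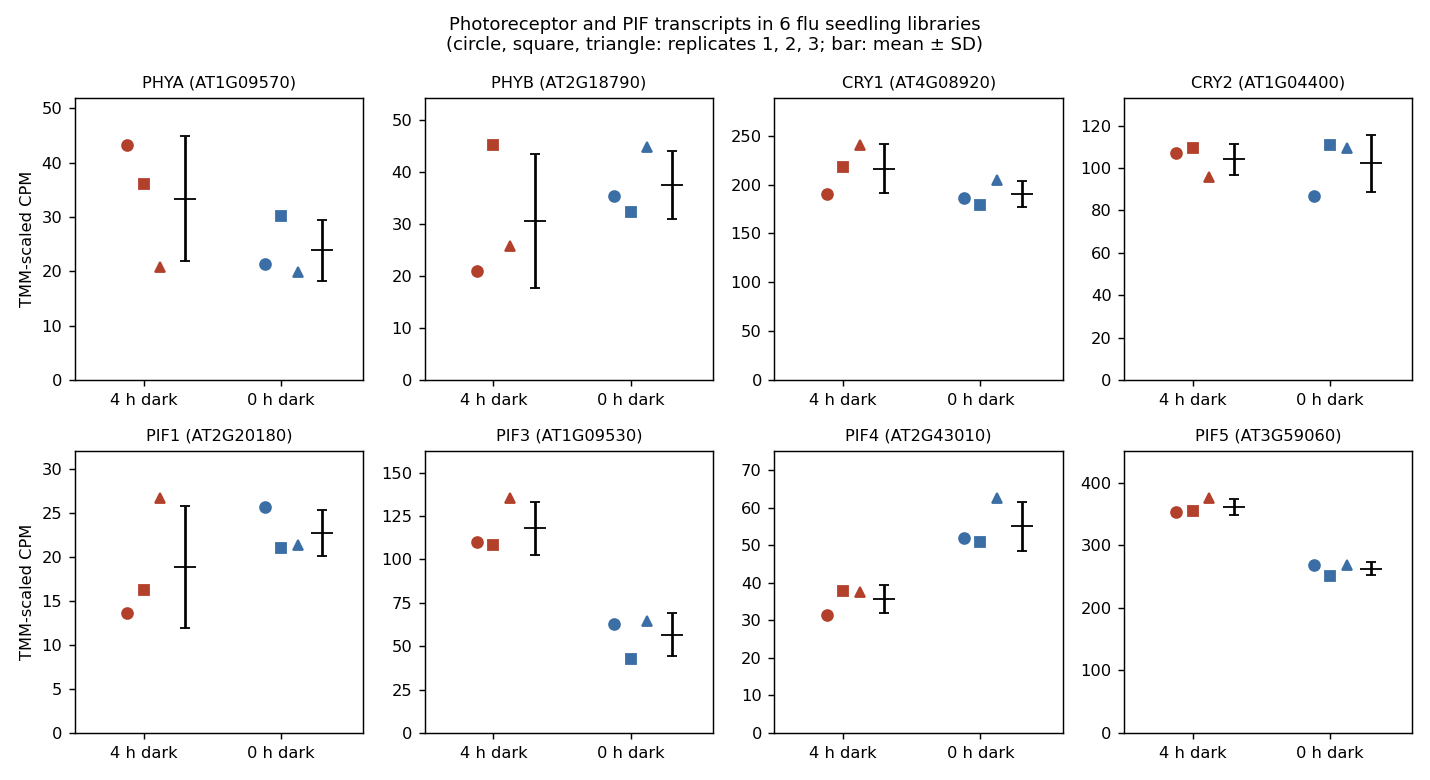
CPM of each of the 8 members (y axis, starting at 0) in every library, with the 4 h group left of the 0 h group. Points are libraries and bars are the group mean with SD (n = 3 each). The points of the groups are apart for PIF3 and PIF5 (4 h higher) and for PIF4 (4 h lower), and overlap for the other 5 members.

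The photoreceptor genes lie, on the TAIR10.1 assembly, at chr1:3095160-3100819 on the minus strand (PHYA), chr2:8139756-8144461 on the plus strand (PHYB), chr4:5723651-5727268 on the plus strand (CRY1) and chr1:1185512-1188696 on the minus strand (CRY2). PHYA and PHYB rested on between 21 and 95 reads a library, and their replicates spread widely. PHYA (AT1G09570) encodes the light-labile phytochrome that senses far-red and very weak light, and its transcript had 43.2, 36.1 and 20.8 CPM in the 4 h libraries, against 21.4, 30.3 and 19.96 CPM in the 0 h libraries. Replicate 3 of the 4 h group lay among the 0 h libraries. PHYA had a log2 fold change of 0.51 with a 95% interval between -0.04 and 1.06 (edgeR adjusted p = 0.208), so a PHYA difference was not separable from the spread. With 1 library left out the PHYA value lay between 0.25 and 0.76, and no such fit called it. Without replicate 3 of the 4 h group it was 0.73 (edgeR adjusted p = 0.0694).

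PHYB (AT2G18790), the main phytochrome of light-grown plants, had 20.9, 45.2 and 25.7 CPM in the 4 h libraries, against 35.5, 32.3 and 44.7 CPM in the 0 h libraries. The highest of the 6 values was a 4 h library and the lowest values were the other 4 h libraries, so the groups overlapped fully. The log2 fold change was -0.33, with a 95% interval between -0.87 and 0.21 (edgeR adjusted p = 0.443). These rested on 26 to 50 reads in the 4 h libraries and on 58 to 65 reads in the 0 h libraries.

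The cryptochrome transcripts had more reads and narrower intervals. CRY1 (AT4G08920), the blue-light receptor that acts mainly in stronger light, had 190, 218 and 240 CPM in the 4 h libraries, against 186, 180 and 205 CPM in the 0 h libraries. The lowest 4 h value lay inside the 0 h range. The log2 fold change was 0.18, with a 95% interval between -0.14 and 0.50 (edgeR adjusted p = 0.489).

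CRY2 (AT1G04400), the cryptochrome that is degraded in blue light and promotes flowering, had 107, 109 and 95.9 CPM in the 4 h libraries, against 86.8, 111 and 109 CPM in the 0 h libraries. Its log2 fold change was 0.03, with a 95% interval between -0.33 and 0.38 (edgeR adjusted p = 0.942), the narrowest interval among the photoreceptors after that of CRY1. No photoreceptor transcript of the 4 was called by DESeq2 or by limma-voom either, and 0 of the 4 had an unadjusted p under 0.05. Of all 10622 genes, DESeq2 called 1293 and limma-voom 1668, and 3039 had an unadjusted p under 0.05 in edgeR.

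PIF3 (AT1G09530), first found as a protein that binds phytochrome, was the member with the smallest p. It lies on chromosome 1 of the TAIR10.1 assembly at 3075768 to 3079654 on the plus strand, with 6 annotated transcripts of up to 8 exons. PIF3 had 242, 120 and 137 reads in the 4 h libraries, against 103, 83 and 94 reads in the 0 h libraries. Scaled to library size these were 110, 108 and 135 CPM, against 63.0, 42.6 and 64.7 CPM in the 0 h libraries. Every 4 h library was above every 0 h library.

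The mean PIF3 level was 118 ± 15.2 CPM in the 4 h group and 56.7 ± 12.3 CPM in the 0 h group (SD, n = 3 each), a 2.08-fold difference. On the log2 scale the change was 1.06 with a standard error of 0.19 (edgeR adjusted p = 0.000305), which placed PIF3 at rank 325 of the genes tested. The call held under all 16 alternative settings, with log2 fold changes between 0.90 and 1.16 and adjusted p-values between 1.01e-06 and 0.00353. Leaving out replicate 3 of the 4 h group put PIF3 at 0.96 on the log2 scale (adjusted p = 0.00353).

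PIF5 (AT3G59060), annotated as PIL6 in RefSeq, promotes elongation growth together with PIF4. It lies on chromosome 3 at 21827905 to 21830837 on the minus strand, with 4 transcripts of up to 6 exons. PIF5 had 353, 355 and 376 CPM in the 4 h libraries, against 268, 250.3 and 268 CPM in the 0 h libraries. The 4 h values were close together and all above the 0 h values.

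The mean PIF5 level was 361 ± 12.7 CPM in the 4 h group and 262 ± 10.5 CPM in the 0 h group (SD, n = 3 each). The difference was 1.38-fold (log2 fold change 0.46, standard error 0.14, edgeR adjusted p = 0.0277). The call was close to the threshold and was lost without replicate 1, 2 or 3 of the 4 h group (adjusted p = 0.0506, 0.0620 and 0.0760) and without replicate 1 of the 0 h group (adjusted p = 0.0808). Over all alternatives the PIF5 log2 fold change stayed between 0.38 and 0.50, with edgeR, DESeq2 or limma-voom adjusted p-values between 0.0109 and 0.0808.

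PIF4 (AT2G43010), the factor through which warm temperature promotes elongation, was the member called lower. It lies on chromosome 2 at 17886101 to 17889087 on the plus strand, with 5 transcripts of up to 7 exons. PIF4 had 69, 42 and 38 reads in the 4 h libraries, against 85, 99 and 91 reads in the 0 h libraries. Scaled, these were 31.4, 37.9 and 37.6 CPM in the 4 h libraries, against 52.0, 50.8 and 62.6 CPM in the 0 h libraries, with no overlap.

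The mean PIF4 level was 35.6 ± 3.67 CPM in the 4 h group and 55.1 ± 6.52 CPM in the 0 h group (SD, n = 3 each), 0.641 of the 0 h level. The log2 fold change was -0.64 with a standard error of 0.21 (edgeR adjusted p = 0.0338). The call was lost in DESeq2 (adjusted p = 0.0864) and without replicate 1, 2 or 3 of the 4 h group (adjusted p = 0.147, 0.0696 and 0.0526) or replicate 1 or 3 of the 0 h group (adjusted p = 0.0699 and 0.115). Over all alternatives the PIF4 log2 fold change stayed between -0.73 and -0.54.

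PIF1 (AT2G20180), annotated as PIL5 in RefSeq, restrains germination and chlorophyll synthesis in darkness. It lies at chr2:8704024-8707009 on the minus strand. Its transcript had 13.7, 16.3 and 26.7 CPM in the 4 h libraries, against 25.7, 21.0 and 21.3 CPM in the 0 h libraries. Replicate 3 of the 4 h group was the highest of the 6 and the other 4 h libraries were the lowest. The log2 fold change was -0.32, with a 95% interval between -0.92 and 0.28 (edgeR adjusted p = 0.511). These values rested on 18 to 30 reads in the 4 h libraries and 31 to 42 reads in the 0 h libraries. PIF1 overlaps AT2G20170 on the opposite strand. Reads from the shared stretch cannot be told apart where strand was not used in counting.

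**Figure D2:**
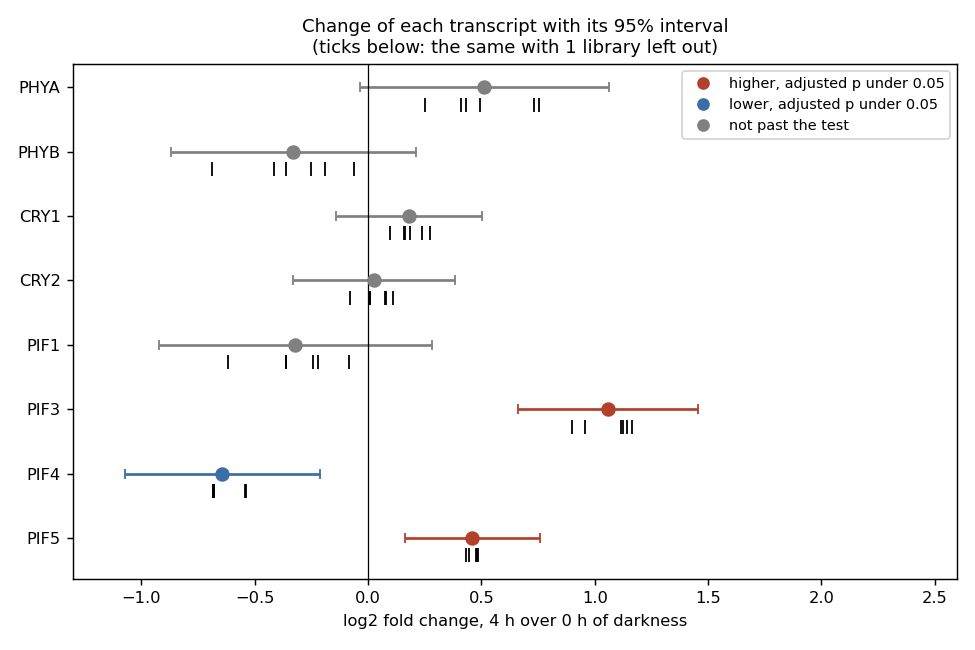
Log2 fold change of each of the 8 members, 4 h over 0 h of darkness (x axis), as a point with its 95% interval from edgeR (n = 3 each). The ticks under each point are the same value with 1 library left out. The intervals of PIF3 (0.66 to 1.45) and PIF5 (0.16 to 0.76) lie above 0 and that of PIF4 (-1.07 to -0.21) below it, while those of the other 5 cross 0.

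The PIF genes thus moved in different directions. Read ratios taken within each library, where the scaling between libraries cancels, restate the same counts and are not further support. These ratios were chosen after the values were seen and carry no test. The ratio of PIF3 to PIF4 reads was 3.51, 2.86 and 3.61 in the 4 h libraries, against 1.21, 0.838 and 1.03 in the 0 h libraries. The mean ratio was 3.32 ± 0.407 in the 4 h group and 1.03 ± 0.187 in the 0 h group (SD, n = 3 each), 3.23-fold apart. PIF4 and PIF5 are close relatives with overlapping roles in growth, and their reads shifted against each other. The ratio of PIF5 to PIF4 reads lay between 9.36 and 11.2 in the 4 h libraries, against 5.17, 4.93 and 4.29 in the 0 h libraries, with means of 10.2 ± 0.953 and 4.79 ± 0.455 (SD, n = 3 each). The ratio of PIF3 to PIF1 reads was 8.07, 6.67 and 5.07 in the 4 h libraries, against 2.45, 2.02 and 3.03 in the 0 h libraries. None of these 3 PIF ratios overlapped between the groups. For those with PIF4 this was fixed by the groups given above, which were apart in opposite directions. The share of all gene pairs with such a ratio was not counted.

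The ratios between photoreceptors did overlap. PHYA to PHYB reads stood at 2.07, 0.8 and 0.808 in the 4 h libraries, against 0.603, 0.937 and 0.446 in the 0 h libraries. CRY1 to CRY2 reads stood at 1.78, 1.99 and 2.51 in the 4 h libraries, against 2.14, 1.62 and 1.87 in the 0 h libraries.

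**Figure D3:**
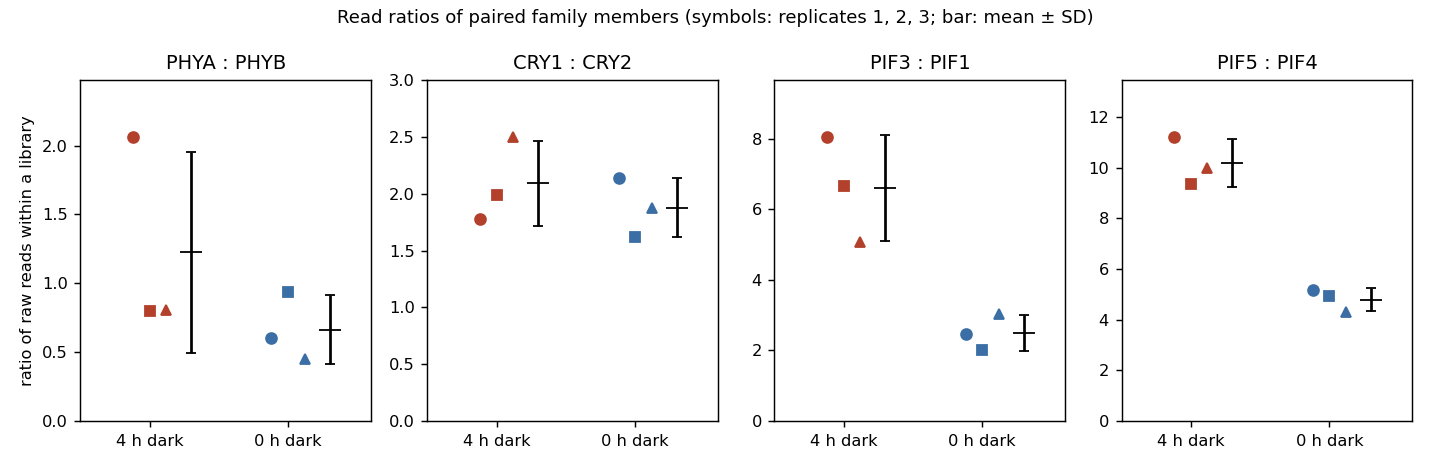
Ratio of raw reads of gene pairs within each library (y axes, starting at 0), with the 4 h libraries left of the 0 h libraries. Symbols are replicates 1 to 3 and bars are the mean with SD (n = 3 each). The ratios of PIF3 to PIF1 and PIF5 to PIF4 do not overlap between the groups (PIF5 to PIF4 lies between 9.36 and 11.2 in the 4 h libraries and between 4.29 and 5.17 in the 0 h libraries), while those of PHYA to PHYB and CRY1 to CRY2 do.

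The promoters of the 3 members past the test are shown because these genes moved in different directions, as the 250 bases before the outermost annotated start, read from the RefSeq TAIR10.1 genome in the direction of transcription. Capitals mark a G-box, CACGTG, the element that PIF proteins and HY5 bind. PIF3 is at chr1:3075518-3075767 on the plus strand, PIF4 at chr2:17885851-17886100 on the plus strand and PIF5 at chr3:21830838-21831087 on the minus strand.
PIF3: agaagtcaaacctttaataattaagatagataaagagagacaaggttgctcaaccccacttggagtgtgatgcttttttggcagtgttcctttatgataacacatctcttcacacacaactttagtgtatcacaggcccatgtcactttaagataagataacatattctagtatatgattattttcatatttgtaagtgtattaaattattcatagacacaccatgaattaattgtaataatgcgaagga
PIF4: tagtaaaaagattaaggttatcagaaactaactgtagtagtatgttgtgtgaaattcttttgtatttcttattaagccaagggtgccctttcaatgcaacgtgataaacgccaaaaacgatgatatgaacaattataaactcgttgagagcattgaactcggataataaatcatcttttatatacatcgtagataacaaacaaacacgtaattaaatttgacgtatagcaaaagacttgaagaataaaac
PIF5: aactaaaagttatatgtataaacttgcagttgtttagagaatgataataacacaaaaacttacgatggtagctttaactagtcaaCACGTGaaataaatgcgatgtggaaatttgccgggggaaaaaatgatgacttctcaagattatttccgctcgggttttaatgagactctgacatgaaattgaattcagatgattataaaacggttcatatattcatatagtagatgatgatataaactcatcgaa

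The window searched ran 250 bases before to 50 bases after each start, on both strands. The PIF5 promoter held 1 G-box, with its first base at -165, and the PHYB promoter held 2, at -146 and -111. No other of the 8 measured members held one, and 7.68% of 27443 Arabidopsis promoters did. The PIF-binding E-box CACATG (in 12.9% of promoters) and the evening element AAAATATCT (in 2.82%), an element of clock-controlled genes, were in none of the 8 windows. Several transcripts of these genes start further in, and a match or its absence describes these letters only.

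The wider set of light-signalling genes was listed by role, and 43 of the 77 genes listed were measured above the filter. Of these, 9 were called higher and 3 lower (27.9%, against 16.6% of all genes), and the groups did not overlap for 17 of them (39.5%, against 32.3%). Their median log2 fold change was 0.04, against -0.06 over all genes.

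Among the other photoreceptors, the phototropin PHOT1, which directs growth toward blue light, was called lower. PHOT1 had 12.3, 14.4 and 9.89 CPM in the 4 h libraries, against 26.9, 30.3 and 13.1 CPM in the 0 h libraries (log2 fold change -0.95, standard error 0.33, edgeR adjusted p = 0.0457). The groups overlapped, and the call was lost in 9 of 16 alternatives, among them DESeq2 (adjusted p = 0.128), leaving out replicate 1, 2 or 3 of the 4 h group (adjusted p = 0.110, 0.0773 and 0.133) and leaving out replicate 1 or 2 of the 0 h group (adjusted p = 0.161 and 0.220). The other 6 blue and UV-B receptors tested were not called, including PHOT2 (log2 fold change -0.94, edgeR adjusted p = 0.417) and the UV-B receptor UVR8 (log2 fold change 0.35, edgeR adjusted p = 0.230). PHYC and PHYD, further phytochromes, were not called either, with log2 fold changes of -1.07 and 0.41. Neither had an unadjusted p under 0.05 or a call by limma-voom. Of all 10622 genes, 3039 had such a p in edgeR and limma-voom called 1668. DESeq2 did not call PHYD and gave no adjusted p for PHYC, so it could not call PHYC. PHOT2 and PHYC rested on few reads. PHOT2 had 2, 5 and 2 reads in the 4 h libraries, against 7, 11 and 4 reads in the 0 h libraries. PHYC had 2, 1 and 5 reads in the 4 h libraries, against 8, 6 and 7 reads in the 0 h libraries.

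Of the 9 phytochrome partners listed, 4 were measured, with 2 called higher, against 8.37% of all genes, and 1 lower, against 8.18% of all genes. DESeq2 called 2 of the 4 and limma-voom 3, against 1293 and 1668 of all 10622 genes. LRB1 and LRB2 are BTB proteins of ubiquitin ligases that degrade phytochrome B and PIF3 together after light. LRB1 had 120, 123 and 98.9 CPM in the 4 h libraries, against 63.0, 49.7 and 39.2 CPM in the 0 h libraries (log2 fold change 1.17, standard error 0.19, edgeR adjusted p = 0.000107). LRB2 had 233, 263 and 251 CPM in the 4 h libraries, against 155, 173 and 151 CPM in the 0 h libraries (log2 fold change 0.64, standard error 0.15, edgeR adjusted p = 0.00423). Neither overlapped between groups, and both calls held under all 16 alternatives. Without replicate 3 of the 4 h group the adjusted p was 0.000351 for LRB1 and 0.0148 for LRB2.

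HMR (HEMERA), needed for phytochrome nuclear bodies and PIF degradation, was called lower. It had 28.2, 28.0 and 31.6 CPM in the 4 h libraries, against 45.2, 42.6 and 54.4 CPM in the 0 h libraries (log2 fold change -0.70, standard error 0.22, edgeR adjusted p = 0.0277). The HMR call was lost in DESeq2 (adjusted p = 0.0782) and without replicate 1 or 2 of the 4 h group (adjusted p = 0.0892 and 0.0903) or replicate 1 or 3 of the 0 h group (adjusted p = 0.0644 and 0.101). It held without replicate 3 of the 4 h group (adjusted p = 0.0434). FHY3, a transcription factor of phytochrome A signalling, had a log2 fold change of -0.76 and was not called (edgeR adjusted p = 0.102).

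The 3 other PIF and related factors measured were not called, among them PIF7 and PAR2 with log2 fold changes of 0.29 and 0.20. None of these 3 had an unadjusted p under 0.05 or a call by DESeq2 or limma-voom. Of all 10622 genes, 3039 had such a p in edgeR, and edgeR called 1758, DESeq2 1293 and limma-voom 1668.

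The proteins of the DELLA and evening complex genes bind PIF proteins or repress PIF4 and PIF5 transcription. Of these 8 genes, 3 were called higher by edgeR, against 8.37% of all genes, and none lower. DESeq2 and limma-voom called 2 each, against 1293 and 1668 of all 10622 genes. ELF3 and LUX belong to the evening complex, which represses PIF4 and PIF5 transcription at dusk. ELF3 had 183, 200 and 275 CPM in the 4 h libraries, against 138, 117 and 134 CPM in the 0 h libraries (log2 fold change 0.75, standard error 0.17, edgeR adjusted p = 0.00286). LUX had 102, 125 and 126 CPM in the 4 h libraries, against 73.4, 68.2 and 84.0 CPM in the 0 h libraries (log2 fold change 0.64, standard error 0.18, edgeR adjusted p = 0.0125). The ELF3 groups were apart, and its call held without replicate 3 of the 4 h group, its highest library, at a log2 fold change of 0.56 (adjusted p = 0.0341). The LUX groups were also apart, and its call was lost without replicate 2 of the 4 h group (adjusted p = 0.0521) and without replicate 1 of the 0 h group (adjusted p = 0.0577) but held without replicate 3 of the 4 h group (adjusted p = 0.0452). The remaining evening complex gene of the list, ELF4, was not called (log2 fold change -0.15, edgeR adjusted p = 0.657), and it was chosen for mention with its value in view.

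The DELLA genes, whose proteins restrain gibberellin-driven growth, were mixed. RGL1 had 14.1, 37.0 and 33.6 CPM in the 4 h libraries, against 17.1, 8.21 and 13.8 CPM in the 0 h libraries (log2 fold change 1.06, standard error 0.35, edgeR adjusted p = 0.0375). The RGL1 groups overlapped, and the call was lost in 7 of 16 alternatives, among them DESeq2 (adjusted p = 0.0648) and without replicate 2 or 3 of the 4 h group (adjusted p = 0.205 and 0.155) or of the 0 h group (adjusted p = 0.145 and 0.0674). GAI and RGA had log2 fold changes of 0.44 and -0.35 and were not called (edgeR adjusted p = 0.0649 and 0.236), though GAI was called higher when reads were thinned to the smallest library (adjusted p = 0.0303).

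Of 13 genes listed as targets of PIF factors, 6 were measured and 2 were called, both higher, against 8.37% of all genes. XTR7 (XTH15), a cell wall enzyme gene induced by shade, had 246, 261 and 256 CPM in the 4 h libraries, against 80.1, 64.6 and 105 CPM in the 0 h libraries (log2 fold change 1.62, standard error 0.18, edgeR adjusted p = 2.38e-07). ATHB2, a homeodomain gene also induced by shade, had 23.7, 35.2 and 22.7 CPM in the 4 h libraries, against 6.11, 6.15 and 8.95 CPM in the 0 h libraries (log2 fold change 1.94, standard error 0.33, edgeR adjusted p = 0.000136). Both were apart between groups and kept their call under all 16 alternatives, with adjusted p-values of 1.15e-05 for XTR7 and 0.000502 for ATHB2 without replicate 3 of the 4 h group. The median of the list was nonetheless -0.51, as the other 4 had negative log2 fold changes without passing the test. Among them were ST2A at -1.02 (edgeR adjusted p = 0.102) and ATHB4 at -1.19 (edgeR adjusted p = 0.247), both on few reads. ATHB4 had 3, 3 and 3 reads in the 4 h libraries, against 12, 6 and 7 reads in the 0 h libraries. ST2A had 20, 2 and 6 reads in the 4 h libraries, against 20, 22 and 21 reads in the 0 h libraries. Scaled, ST2A had 9.10, 1.81 and 5.93 CPM in the 4 h libraries, against 12.2, 11.3 and 14.5 CPM in the 0 h libraries. ATHB4 had 1.37, 2.71 and 2.97 CPM in the 4 h libraries, against 7.34, 3.08 and 4.82 CPM in the 0 h libraries. ST2A and ATHB4 were thus also apart between groups, with the 4 h group lower. Of the 6 targets, 4 did not overlap (66.7%, against 32.3% of all genes). ST2A was called lower with the replicate block (adjusted p = 0.0460) and without replicate 1 of the 4 h group (adjusted p = 0.0324).

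On the side of COP1 and SPA1, 3 of the 9 other SPA, CUL4 ligase and COP10-DET1 genes were measured. Of these, 1 was called lower, against 8.18% of all genes. RBX1, the RING subunit of cullin ligases, had 19.6, 13.5 and 8.90 CPM in the 4 h libraries, against 34.8, 16.9 and 39.2 CPM in the 0 h libraries (log2 fold change -1.01, standard error 0.32, edgeR adjusted p = 0.0315). The RBX1 groups overlapped, and the call was lost in 6 of 16 alternatives, namely in DESeq2 and limma-voom (adjusted p = 0.0667 and 0.0768), without replicate 2 or 3 of the 4 h group (adjusted p = 0.104 and 0.140), and without replicate 1 or 3 of the 0 h group (adjusted p = 0.130 and 0.157). CUL4, the cullin that carries COP1 and SPA1, had a log2 fold change of -0.80 (edgeR adjusted p = 0.0555), and it was called lower in 4 alternatives. These were the replicate block (adjusted p = 0.0393), upper quartile scaling (adjusted p = 0.0373), filterByExpr (adjusted p = 0.0441) and leaving out replicate 3 of the 0 h group (adjusted p = 0.0150). COP10 had a log2 fold change of 0.34 (edgeR adjusted p = 0.323).

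Subunits of the COP9 signalosome, which recycles cullin ligases, were measured for 4 of 10 genes and none was called by edgeR, DESeq2 or limma-voom. Over all 10622 genes, edgeR called 1758, DESeq2 1293 and limma-voom 1668. An unadjusted p under 0.05 was reached by 1 of the 4, against 3039 of all 10622 genes. Their log2 fold changes had a median of -0.12, with CSN7 at 0.44 (edgeR adjusted p = 0.139) and CSN1 at -0.34 (edgeR adjusted p = 0.595).

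Among 12 genes whose proteins COP1 marks for degradation, 6 were measured above the filter and 2 were called, both higher, against 8.37% of all genes. HY5, the bZIP factor that promotes greening in light, had 222, 267 and 302 CPM in the 4 h libraries, against 113, 92.3 and 107 CPM in the 0 h libraries (log2 fold change 1.33, standard error 0.17, edgeR adjusted p = 2.36e-06). Its groups were far apart, and the call held under all 16 alternatives, with an adjusted p of 9.02e-05 without replicate 3 of the 4 h group. CO (CONSTANS), which promotes flowering in long days, had 18.2, 18.1 and 21.8 CPM in the 4 h libraries, against 10.4, 4.10 and 5.51 CPM in the 0 h libraries (log2 fold change 1.53, standard error 0.37, edgeR adjusted p = 0.00412). Of the 16 alternatives, only thinning reads to the smallest library lost the CO call (adjusted p = 0.0606), and without replicate 3 of the 4 h group the adjusted p was 0.0192. BBX25 and GATA2 had log2 fold changes of 0.49 and -0.31 (edgeR adjusted p = 0.0977 and 0.494), and BBX25 was called higher without replicate 1 of the 4 h group (adjusted p = 0.0339) or replicate 2 of the 0 h group (adjusted p = 0.0401).

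**Figure D4:**
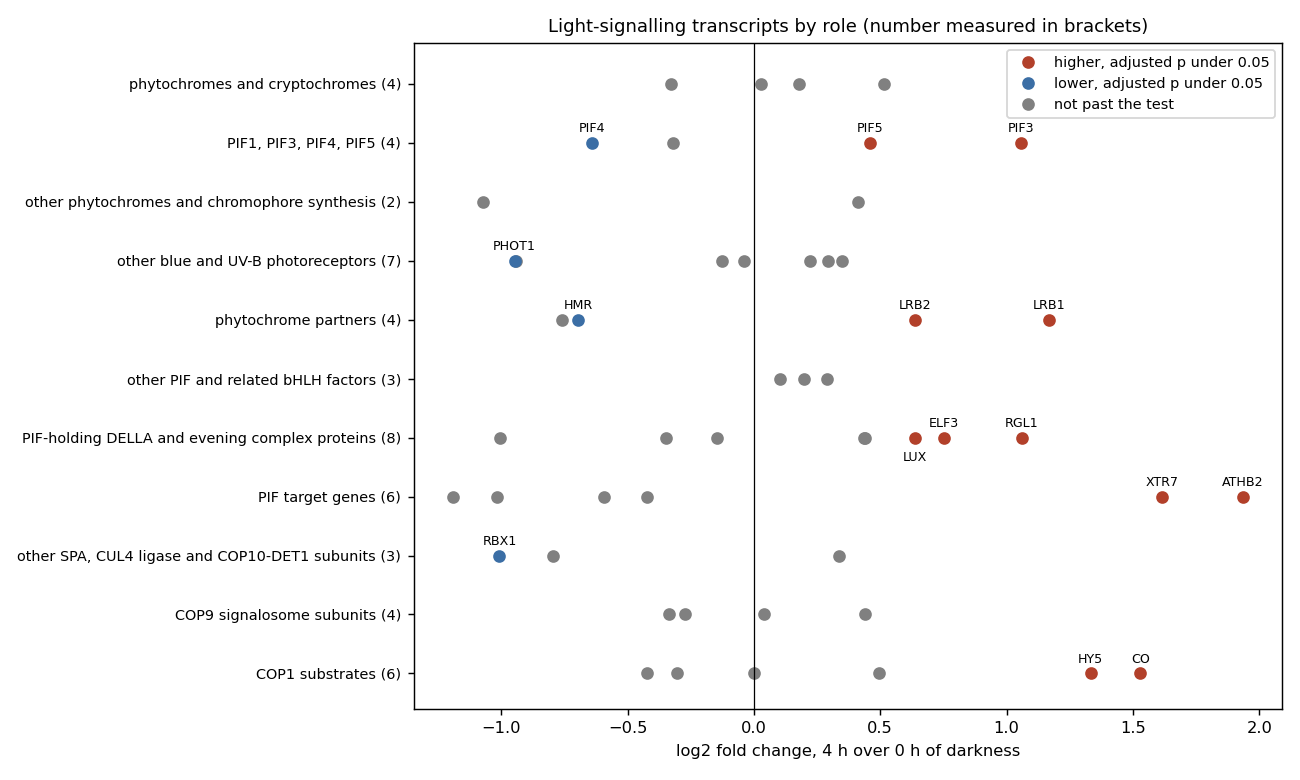
Log2 fold change, 4 h over 0 h of darkness (x axis), of each measured light-signalling gene, by role (rows, number measured in brackets). Named points passed the edgeR test at an adjusted p under 0.05. Called genes higher in the 4 h group include ATHB2 (1.94), XTR7 (1.62), CO (1.53) and HY5 (1.33), and those called lower include RBX1 (-1.01), PHOT1 (-0.95) and PIF4 (-0.64).

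The genes whose pattern was nearest to that of PIF3 were ranked over the 6 libraries, by the root mean square distance between centred log2 CPM, among 4729 genes with a mean of at least 20 CPM. The nearest was AT5G47180 at a distance of 0.0881, with 89.6, 86.7 and 117 CPM in the 4 h libraries against 56.9, 38.5 and 49.5 CPM in the 0 h libraries. AT5G53570 followed at 0.0892, with 73.3, 82.2 and 88.0 CPM in the 4 h libraries against 40.4, 31.3 and 44.7 CPM in the 0 h libraries. IDD7, a zinc finger gene, was at 0.106. This is a description over 6 libraries that share the same group difference.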

How the data were processed

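RNA of whole *flu* seedlings was profiled by bulk MARS-seq, which reads transcript 3′ ends. Per the submitters' notes, HTSeq, STAR, cutadapt 1.8.3, bcl2fastq 2.17.1.14, DESeq2 and DESeq were used, and the study's methods give an Araport reference and a filter of 5 reads. The authors deposited raw counts of reads per gene, not collapsed by molecular identifiers. The deposited table also held regularised log2 values and a signal of size-factor-scaled counts, neither of which was tested. Whether counting used strand is not given in the sources used here.

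A gene was kept when 1 or more libraries reached 5 reads. Counts were scaled by TMM and tested with edgeR 4.0.16 (R 4.3.3) by the quasi-likelihood test with group as the only term, adjusted over all 10622 genes by the Benjamini-Hochberg method. The fit had 22.1 prior degrees of freedom and a common dispersion of 0.0272. Intervals are 95% intervals of that fit. The test was checked on simulated counts. The changes planted there were larger than those of PIF4 and PIF5, so recovery of changes of their size was not checked. Replicates of a group differed by more than sampling noise, with a chi-square per degree of freedom between 3.17 and 6.20.

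Alternatives were DESeq2 1.42.0, limma-voom (limma 3.58.1), other scalings, other filters, thinning, a replicate block, each library left out, and the deposited size factors, the last chosen after seeing the data. The members and lists were chosen with earlier results of these data known. Named are all members, every listed light-signalling gene past the test with up to 2 others per list by smallest p, the 3 genes nearest to PIF3 in pattern, and FLU. ELF4 was added after its value was seen. From the lists, 8 identifiers without a matching name were dropped. Positions and promoters were taken from RefSeq TAIR10.1.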

Additional observations from a re-analysis of the deposited data

How the results depend on the processing

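Of 653 values of single genes under 16 alternative settings, 599 kept their direction and their side of the threshold, 41 lost and 9 gained a call, and 4 changed sign. All 4 were CRY2, at -0.0508 under upper quartile scaling, -0.00017 with library size only, -0.0104 with filterByExpr and -0.0807 without replicate 1 of the 0 h group (between -0.0807 and 0.112 with 1 library left out). Over all genes, 889 were called higher and 869 lower in edgeR, against 750 and 543 in DESeq2. Leaving out 1 library gave between 610 and 825 called higher and between 569 and 723 called lower, the 569 without replicate 2 of the 4 h group. Of the members, upper quartile scaling called 1 higher, losing PIF5 (adjusted p = 0.0628), and DESeq2 called 0 lower, losing PIF4. Leaving out 1 library gave between 1 and 2 members higher and between 0 and 1 lower. Of the other light-signalling genes, 3 were called lower in edgeR, 0 in DESeq2, 1 in limma-voom and 5 with the replicate block, and between 0 and 2 with 1 library left out. Upper quartile scaling put the median log2 fold change of all genes at -0.14, against -0.06 with TMM, and the split of calls at 725 higher and 1026 lower. With the deposited size factors, chosen after seeing the data, 879 genes were called higher and 881 lower, and members 2 and 1.

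Same-numbered libraries of the 4 h and 0 h groups deviated together only weakly (correlations of 0.0224, 0.0206 and 0.0552), but each library correlated best with its own number. The main test did not pair them, and whether same-numbered libraries share more than a number was not tested. With the replicate block 988 genes were called higher and 991 lower, and 2 members higher and 1 lower. The block added calls for CUL4 and ST2A, both lower, and changed no other call of a named gene. The libraries held 1012425 to 2185464 reads, and intervals are widest for the members with fewest reads, PHYA, PHYB and PIF1.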
